A study of Mus musculus with 8 samples.

Results

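The genes described are 7 matrix metalloproteinases (MMPs), Mmp2, Mmp3, Mmp9, Mmp10, Mmp11, Mmp13 and Mmp14, and 3 tissue inhibitors of metalloproteinases (TIMPs), Timp1, Timp2 and Timp3. These 10 genes were taken by name. Each was given the assembled locus that best covered its annotated span in the mm9 mouse genome, with a shared part of at least 0.5 of their joint length. 9 of the 10 had such a locus in all 8 samples, among 20195 genes in the whole series that did. The exception was Mmp2, which was handled separately.

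MMPs are zinc-dependent proteases that cut collagens, laminins, proteoglycans and other proteins of the extracellular matrix. They are made as inactive precursors and are activated outside the cell or at its surface. TIMPs are small secreted proteins that bind active MMPs and block them, and fibroblasts are a major source of both in connective tissue.

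The cells were NIH3T3, a line of mouse embryonic fibroblasts. Control cells carried the empty pcDNA3.1 (Zeo+) plasmid and received vehicle, and Hh-CM cells carried the same plasmid and received Hedgehog conditioned medium (Hh-CM). Esrrb cells carried an Esrrb expression vector and received vehicle, and Esrrb+Hh-CM cells carried that vector and received Hh-CM. Esrrb encodes estrogen related receptor β, an orphan nuclear receptor. All cells were selected with 150 µg/ml Zeocin, grown to confluence and treated for 48 h in medium with 5% newborn calf serum. Hh-CM came from HEK293 cells, a human kidney line, that secrete the N-terminal part of Sonic Hedgehog, and was diluted 1 in 100. Vehicle was medium conditioned by HEK293 cells without this transgene, at an equal dilution. The vector lines were pools of transfected cells, from 2 independent transfections by the study's methods, and not single clones. An effect of the vector cannot be told apart from a difference between separately selected lines. Each of the 4 groups had 2 samples, called biological replicates in the study's methods without saying what separates them, so the p-values measure only the spread between these samples.

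The values, FPKM, count fragments per length of transcript and scale them to the depth of the sample, so levels can be set side by side between genes. Read totals are not in the files used here. The steps between low FPKM values put the depth of the samples between 0.743 and 1.54 times that of Control replicate 1. Esrrb replicate 1 and Hh-CM replicate 2 stood apart: 8080 loci carried the same assembly number at the same position in both, while the next highest pair of samples shared 106. Esrrb replicate 1 also had 480 loci marked as having too little data, against 62 to 78 in the others. The FPKM of the members differed between these libraries, and changes of call without both are given beside the results. Gli1, a direct target of Hedgehog signaling, rose from 0.0262 FPKM in Control to 27.4 in Hh-CM cells. The Esrrb locus was listed at 0 in all 4 samples with the Esrrb vector and at no more than 0.0281 in the others, so these values give no check of the vector label. All 8 fibroblast markers were found, with a summed level of 6250 to 7173 FPKM. With Hh-CM against Control, 2 of them passed the adjusted p, where 18.0% of all tested genes passed. Thy1 rose from 87.6 to 397 FPKM and Pdgfrb fell by 0.37 on the log2 scale (adjusted p = 0.00294 in limma). In Esrrb against Control cells 5 of the 8 markers passed the adjusted p, 3 higher and 2 lower, where 16.4% of all tested genes passed. Summed markers were 2.59 to 5.07 FPKM for leukocytes, with S100a9 at 0 in all samples and S100a8 at 0 in both Esrrb+Hh-CM samples, and at most 0.092 for epithelium, with Epcam and Krt18 at 0. Endothelial markers summed to 0.035 to 0.059 FPKM without Hh-CM and 0.121 to 0.184 with it, with Kdr at 0, and their part in the results was not tested.

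Tests used limma on log2(FPKM + 0.1) and covered the 10282 genes that reached an FPKM of 1 in at least 2 samples. 6 members entered the test: Mmp9, Mmp11, Mmp14, Timp1, Timp2 and Timp3. Mmp3, Mmp10 and Mmp13 lay below the limit. A gene was said to rise or fall if its adjusted p was below 0.05, and to be called if its log2 fold change was also at least 1 in size. The 6 tested members were well expressed. Their mean FPKM lay at percentile 65.4 of all tested genes for Mmp11, at 78.3 for Mmp9 and between 95.3 and 98 for the rest.

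**Figure D1:**
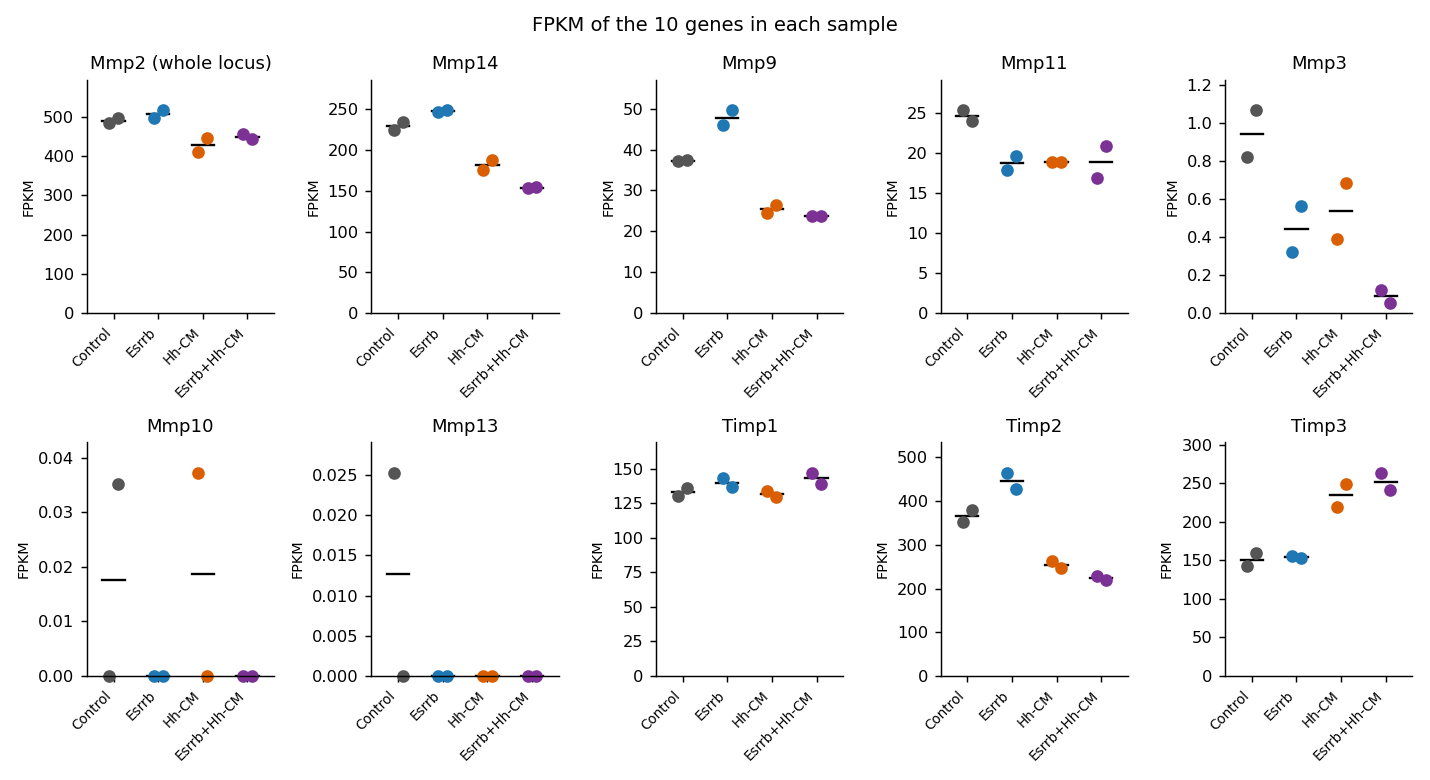
FPKM (linear axis from 0, scaled for each gene) of the 10 genes in Control, Esrrb, Hh-CM and Esrrb+Hh-CM cells; points are the 2 samples of a group and lines their mean, and for Mmp2 the value is that of the assembled locus. Mmp9, Mmp14 and Timp2 lie lower and Timp3 higher in both groups with Hh-CM than in both groups without it, while Timp1 stays between 129.7 and 146.9 FPKM.

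The first question was how the MMP and TIMP genes responded to Hh-CM in cells without Esrrb. Hh-CM lowered Mmp9, Mmp14 and Timp2 and raised Timp3 against Control, each by less than 2-fold. Of the 6 tested members, 4 passed the adjusted p, 1 higher and 3 lower, where 18.0% of all tested genes passed, 10.5% higher and 7.51% lower. None was called, where 2.75% of all tested genes were, and 5 of the 6 had an unadjusted p below 0.05 in limma. The median log2 fold change of the 6 members was -0.36, against 0.04 over all tested genes. A lower level in bulk RNA cannot be told apart from fewer cells that express the gene.

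Mmp2 and Mmp9 encode the gelatinases, which cut denatured collagen and the type IV collagen of basement membranes. Mmp9 lies on mm9 chr2:164766280-164781350. The measured locus ran from 164773719 to 164781349 in all samples, and its overlap with the annotated gene was 0.506, just past the limit of 0.5. Mmp9 measured 37.1 and 37.5 FPKM in the Control samples, 24.5 and 26.4 with Hh-CM, 46.0 and 49.6 with the Esrrb vector, and 23.9 and 23.7 with both. The groups did not overlap: the Esrrb samples were the highest, the Control samples followed, and all 4 samples with Hh-CM lay below them. Between Control and Hh-CM cells, Mmp9 fell by 0.55 on the log2 scale (SE 0.055, adjusted p = 0.00206). Between Esrrb and Esrrb+Hh-CM cells it fell by 1.01 (SE 0.055, adjusted p = 0.000149). This was the only call among the members in any of the 5 comparisons, as fitted above, and it lay on the limit: the size was 0.98 with a pseudocount of 1, 0.95 without Esrrb replicate 2 and 0.999 without Esrrb+Hh-CM replicate 2.

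Mmp9 also rose in Esrrb against Control cells, by 0.36 on the log2 scale (adjusted p = 0.0123). This rise lost its place past the threshold when Control replicate 1 (adjusted p = 0.0677), Control replicate 2 (0.0586) or Esrrb replicate 2 (0.0562) was left out. Under Hh-CM the vector made no detectable difference to Mmp9, with a log2 fold change of -0.10 ± 0.055 (SE, adjusted p = 0.265).

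The Mmp2 gene, on mm9 chr8:95351227-95377316, was given its own locus in 2 samples, at 496.0 FPKM in Esrrb replicate 1 and 410.0 in Hh-CM replicate 1. In the other 6 samples the assembled locus ran on over the neighbouring gene Lpcat2, to position 95443178, and its overlap with Mmp2 was 0.284. Mmp2 was therefore left out of the main tests. In the 2 samples where Lpcat2 had a locus of its own, it measured 1.87 and 2.29 FPKM. The locus measured 482.7 and 496.9 FPKM in Control, 410.0 and 445.0 in Hh-CM, 496.0 and 516.3 in Esrrb, and 455.3 and 443.0 in Esrrb+Hh-CM samples. By this value Mmp2 was the most abundant of the 10 genes in every sample. All 4 samples with Hh-CM lay below all 4 without it. A fit chosen after seeing the data kept the joined locus. In the 2 samples with separate loci, the Lpcat2 value was added to that of Mmp2, so the samples were not all measured alike. In that fit Mmp2 fell by 0.19 with Hh-CM against Control (adjusted p = 0.0413) and by 0.17 in Esrrb+Hh-CM against Esrrb cells (adjusted p = 0.0461). The vector made no detectable difference, with log2 fold changes of 0.05 and 0.07 (adjusted p = 0.513 and 0.36).

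Mmp14, on mm9 chr14:55050441-55060095, encodes MT1-MMP, a collagenase anchored in the plasma membrane that activates pro-MMP2 in a complex with TIMP2. It measured 223.9 and 233.7 FPKM in Control, 174.9 and 187.2 in Hh-CM, 246.4 and 248.7 in Esrrb, and 153.0 and 154.7 in Esrrb+Hh-CM samples. The 4 groups were separate, in the order Esrrb, Control, Hh-CM and Esrrb+Hh-CM from the highest down. Mmp14 fell by 0.34 with Hh-CM against Control (SE 0.043, adjusted p = 0.0048) and by 0.69 in Esrrb+Hh-CM against Esrrb cells (SE 0.043, adjusted p = 0.000248).

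Mmp14 was the only tested member that fell with the vector under Hh-CM. Its log2 fold change in Esrrb+Hh-CM against Hh-CM cells was -0.23 (adjusted p = 0.0181), where 19.1% of all tested genes passed the adjusted p and 1 of 6 members did; 6.56% of all genes were lower. None was called, where 1.96% of all genes were, and 3 of the 6 members had an unadjusted p below 0.05 in limma. The fall was not past the threshold without Hh-CM replicate 2 (adjusted p = 0.0692), without Esrrb+Hh-CM replicate 1 (0.0658) or replicate 2 (0.0546), or without both libraries that share locus numbers (0.125). In vehicle the difference between Esrrb and Control cells was 0.11 with an adjusted p of 0.132.

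Mmp11 encodes stromelysin-3, which is activated inside the cell by furin, and lies on mm9 chr10:75385967-75400678. It measured 25.3 and 23.9 FPKM in Control, 18.8 and 18.8 in Hh-CM, 17.8 and 19.6 in Esrrb, and 16.9 and 20.8 in Esrrb+Hh-CM samples. Both Control samples lay above the other 6, which overlapped each other. The log2 fold changes against Control were -0.38 for Hh-CM (adjusted p = 0.0573), -0.40 for Esrrb (0.0562) and -0.39 for both (0.0333). Only the last passed the threshold, and it was lost without Control replicate 1 (adjusted p = 0.133), Control replicate 2 (0.0841), Hh-CM replicate 1 (0.0579), Hh-CM replicate 2 (0.0579) or Esrrb+Hh-CM replicate 1 (0.0734), without both libraries that share locus numbers (0.0841), with no FPKM limit (0.101) and with the compared groups only (0.0825). The first 2 passed when either Esrrb+Hh-CM sample was left out, with adjusted p of 0.0185 to 0.0213. In Esrrb cells Hh-CM made no detectable difference to Mmp11, with a log2 fold change of 0.00 ± 0.105 (SE).

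Mmp3 and Mmp10, which encode stromelysins 1 and 2, and Mmp13, which encodes the main interstitial collagenase of mice, were near the floor of these libraries. The 3 genes lie in a cluster of 10 MMP genes on mm9 chromosome 9, between 7272514 and 7699585. Promoters of such inducible MMP genes are known for an AP-1 site, where dimers of Fos and Jun proteins bind, close to a TATA box. The last 100 bases before the annotated start of these genes are printed because these members had the lowest levels and share both sets of letters. They are RefSeq sequences of GRCm38.p6, written 5′ to 3′ on the gene's strand, with TGANTCA (AP-1, both strands searched) and TATAAA (the gene's strand, last 50 bases) in capitals. The windows are chr9:7445722-7445821 for Mmp3, chr9:7502242-7502341 for Mmp10 and chr9:7272414-7272513 for Mmp13.
Mmp3: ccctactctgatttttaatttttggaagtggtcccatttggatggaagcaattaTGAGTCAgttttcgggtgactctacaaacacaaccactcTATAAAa
Mmp10: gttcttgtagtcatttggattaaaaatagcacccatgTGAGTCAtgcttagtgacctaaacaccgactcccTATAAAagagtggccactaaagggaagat
Mmp13: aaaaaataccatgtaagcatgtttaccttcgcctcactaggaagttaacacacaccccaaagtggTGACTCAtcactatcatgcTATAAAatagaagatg

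The AP-1 letters began 46 bases before the annotated start in Mmp3, 63 in Mmp10 and 35 in Mmp13. TATAAA began 7 bases before it in Mmp3, 29 in Mmp10 and 16 in Mmp13. All these distances depend on where the start is annotated. TGANTCA stood in the 250 bases before the start of 6.75% of 32851 mouse promoters. TATAAA, searched after the sequences had been seen, stood in the last 50 bases of 2.63% of them, and both together were found in 0.338%. Of the 8 members with a promoter entry, Mmp3, Mmp10 and Mmp13 held both sets of letters, and Mmp11, Mmp14, Timp1, Timp2 and Timp3 held neither. The windows of Timp2 on chr11:118355412-118355511 and Timp3 on chr10:86300312-86300411 of GRCm38.p6 are shown for contrast, since these 2 genes were abundant and moved in opposite directions.
Timp2: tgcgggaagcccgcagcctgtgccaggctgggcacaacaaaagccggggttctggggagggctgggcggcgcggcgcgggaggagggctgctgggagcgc
Timp3: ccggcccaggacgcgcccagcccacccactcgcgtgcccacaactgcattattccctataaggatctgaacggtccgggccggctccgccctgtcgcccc

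G and C made up 75% of the printed Timp2 bases and 69% of those of Timp3, against 38% in Mmp3 and Mmp13 and 41% in Mmp10. No member held the Gli motif GACCACCCA or the estrogen-related receptor element TCAAGGTCA on either strand of the 250 bases, and these stood in 0.225% and 0.387% of all promoters. A match is a description of letters only, and its absence covers no more than this window.

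Mmp3 measured 0.821 and 1.07 FPKM in Control, 0.387 and 0.686 in Hh-CM, 0.321 and 0.563 in Esrrb, and 0.124 and 0.0527 in Esrrb+Hh-CM samples. The FPKM were whole multiples of a step, worth about 1 read: 21 and 32 steps in Control, 11 and 27 in Hh-CM, 7 and 14 in Esrrb, and 3 and 1 in Esrrb+Hh-CM samples. By FPKM both Control samples were above all others, the Hh-CM and Esrrb samples overlapped, and both Esrrb+Hh-CM samples were below all others. By steps, not scaled to depth, Hh-CM replicate 2 lay above Control replicate 1.

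Set against Control, with steps scaled by relative depth, Mmp3 was at 0.588 times in Hh-CM (exact 95% interval 0.377 to 0.909), 0.472 times in Esrrb (0.271 to 0.796) and 0.0971 times in Esrrb+Hh-CM cells (0.0255 to 0.263). Against Hh-CM cells, Esrrb+Hh-CM cells were at 0.165 times (0.0428 to 0.459), and against Esrrb cells at 0.206 times (0.0513 to 0.609). These intervals cover counting error only and not the spread between samples. In a fit with no FPKM limit, over 20195 genes, Mmp3 fell by 2.49 on the log2 scale in Esrrb+Hh-CM against Control cells (SE 0.392, adjusted p = 0.0207), which met both thresholds. In the same fit its adjusted p was 0.48 for Hh-CM and 0.299 for Esrrb against Control, 0.0821 for Esrrb+Hh-CM against Hh-CM and 0.104 against Esrrb cells. The plot of Mmp3 steps shows how few reads these values rest on.

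**Figure D2:**
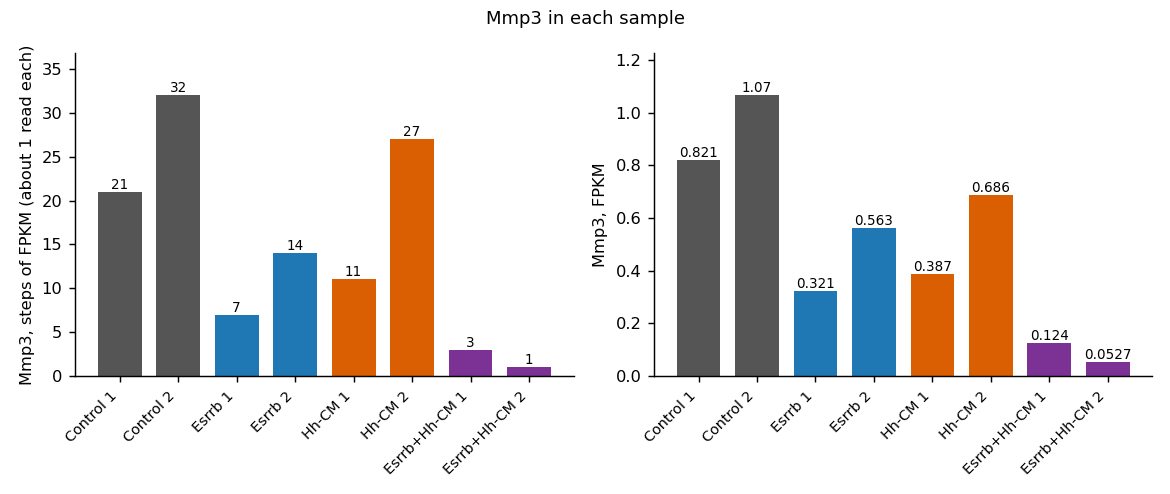
Mmp3 in each of the 8 samples, as steps of FPKM worth about 1 read each (left) and as FPKM (right), both on linear axes from 0. The Esrrb+Hh-CM samples, with 3 and 1 steps, are the lowest in both panels. The Control samples are the highest by FPKM, while by steps Hh-CM replicate 2 (27) lies above Control replicate 1 (21).

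Mmp10 was at 1 step in Control replicate 2 and Hh-CM replicate 1, and Mmp13 at 1 step in Control replicate 1. Both were listed at 0 in all remaining samples. At 3 counts, a value of 0 allows up to 0.0804 to 0.167 FPKM of Mmp10 and 0.0492 to 0.102 FPKM of Mmp13, depending on the sample. Differences between groups were not detectable for these genes at this depth.

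TIMP1, TIMP2 and TIMP3 inhibit most MMPs. Timp2, on mm9 chr11:118162383-118217054, was the most abundant TIMP gene without Hh-CM. It measured 351.3 and 378.9 FPKM in Control, 262.2 and 247.3 in Hh-CM, 464.5 and 427.8 in Esrrb, and 228.4 and 220.5 in Esrrb+Hh-CM samples. Some of these values lay above their own deposited upper confidence limits. The limits were 422.6 FPKM in Esrrb replicate 2, 259.1 in Hh-CM replicate 1 and 223.1 in Esrrb+Hh-CM replicate 1. The 4 groups were separate and had the same order as those of Mmp9 and Mmp14. Timp2 fell by 0.52 with Hh-CM against Control (SE 0.061, adjusted p = 0.0036) and by 0.99 in Esrrb+Hh-CM against Esrrb cells (SE 0.061, adjusted p = 0.000228), just short of the fold limit. Rescaling FPKM to a common median carried it past that limit, with a size of 1.03, and so did leaving out Esrrb replicate 2 (1.05) or Esrrb+Hh-CM replicate 1 (1.02).

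The rise of Timp2 in Esrrb against Control cells was 0.29 (adjusted p = 0.0303). It was not past the threshold without Control replicate 1 (adjusted p = 0.127) or replicate 2 (0.058), without Esrrb replicate 1 (0.121) or replicate 2 (0.0528), or without both libraries that share locus numbers (0.162). Under Hh-CM the vector's log2 fold change was -0.18 (adjusted p = 0.0909).

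Timp3, on mm9 chr10:85763117-85812251, encodes an inhibitor that stays bound to the matrix and also blocks ADAM proteases. It measured 142.6 and 159.2 FPKM in Control, 219.7 and 249.3 in Hh-CM, 156.2 and 152.8 in Esrrb, and 263.6 and 241.1 in Esrrb+Hh-CM samples. The value of Control replicate 1 lay above its deposited upper confidence limit of 141.3 FPKM. All 4 samples with Hh-CM were above all 4 without it, and the samples with and without the vector overlapped within each treatment. Timp3 rose by 0.63 with Hh-CM against Control (SE 0.085, adjusted p = 0.00556), a 1.55-fold difference, and by 0.71 in Esrrb+Hh-CM against Esrrb cells (SE 0.085, adjusted p = 0.00259). Without both libraries that share locus numbers, the first of these was 0.54 with an adjusted p of 0.0646. The vector made no detectable difference, with log2 fold changes of 0.04 ± 0.085 in vehicle and 0.11 ± 0.085 under Hh-CM (SE).

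Timp1, on mm9 chrX:20447292-20451861, encodes an inhibitor that cells often induce with growth factors. It measured 130.4 and 136.1 FPKM in Control, 133.6 and 129.7 in Hh-CM, 143.3 and 136.5 in Esrrb, and 146.9 and 139.2 in Esrrb+Hh-CM samples. Control overlapped Hh-CM and Esrrb overlapped Esrrb+Hh-CM, and both groups with the vector lay above both without it. No comparison passed the threshold, with adjusted p from 0.13 to 0.848. The values of some samples lay above their own deposited upper confidence limits. These limits were 113.0 and 116.6 FPKM in Control, 115.0 and 109.3 in Hh-CM and 127.4 in Esrrb replicate 1. Esrrb replicate 2 and both Esrrb+Hh-CM samples lay within theirs, so the lack of a difference with the vector is uncertain. The log2 fold change with Hh-CM was -0.02 ± 0.046 (SE) against Control and 0.03 ± 0.046 in Esrrb cells.

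Some members share their measured locus with other annotated genes. Timp1 lies within Syn1 and Timp3 within Syn3, both on the opposite strand, Timp2 holds BC100451 on its own strand, and Mmp14 holds Gm11067 on the opposite strand. The libraries were strand-specific, but the strand setting of the counting is not given in the sources used here, so it is not known whether reads of the pairs on opposite strands were kept apart, and reads of Timp2 and BC100451 cannot be told apart. The measured Mmp11 locus ended at 75395208 in all samples, short of Chchd10 and Gm867, which overlap the annotated gene.

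The summed level of Timp1, Timp2 and Timp3 was 624.3 and 674.2 FPKM in Control, 615.6 and 626.4 in Hh-CM, 764.0 and 717.2 in Esrrb, and 638.9 and 600.8 in Esrrb+Hh-CM samples. Timp3 made up 22.8 and 23.6% of it in Control and 20.4 and 21.3% in Esrrb samples, against 35.7 and 39.8% in Hh-CM and 41.3 and 40.1% in Esrrb+Hh-CM samples. Timp2 went the other way, from 56.2 to 60.8% in the 4 samples without Hh-CM to 35.8 to 42.6% in the 4 with it. These shares were not tested.

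**Figure D3:**
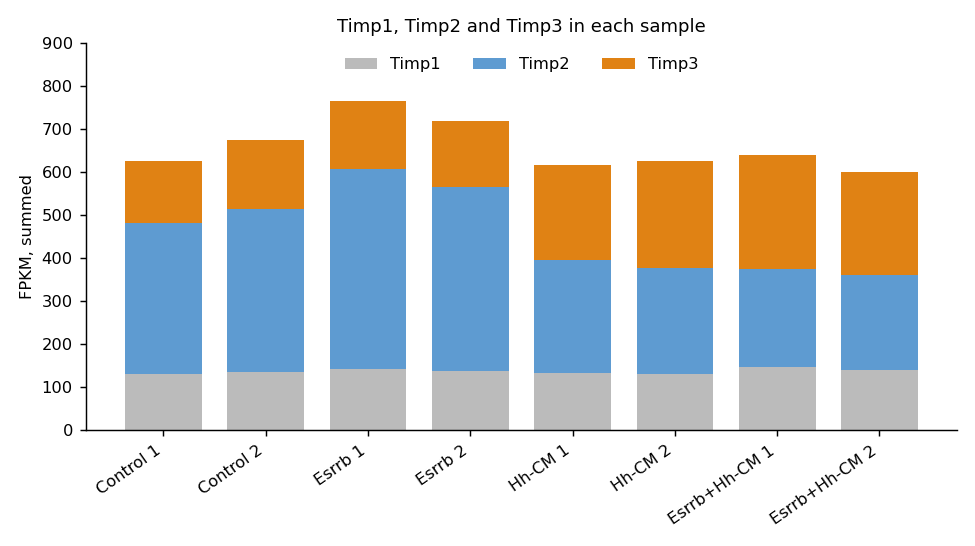
Summed FPKM of Timp1 (grey), Timp2 (blue) and Timp3 (orange) in each of the 8 samples, on a linear axis from 0. The Timp3 part makes up 20.4 to 23.6% of the bar in samples without Hh-CM and 35.7 to 41.3% in samples with it.

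The MMP genes other than Mmp2 summed to 287.2 and 296.2 FPKM in Control, 218.7 and 233.1 in Hh-CM, 310.6 and 318.5 in Esrrb, and 193.9 and 199.2 in Esrrb+Hh-CM samples. Mmp14 was the largest part of it in every sample. With the Mmp2 locus added, the sum of MMPs was 1.23 and 1.18 times that of the TIMPs in Control samples and 1.02 to 1.16 times in the other 6. FPKM measures RNA and not the activity of these enzymes.

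The next question was what the Esrrb vector did in vehicle. Of the 6 tested members, 2 passed the adjusted p in Esrrb against Control cells, Mmp9 and Timp2, both higher, where 16.4% of all tested genes passed and 10.2% were higher. None was called, where 1.47% of all genes were, and 4 of the 6 had an unadjusted p below 0.05 in limma. The median log2 fold change was 0.09 for the members and 0.05 for all tested genes. Of all genes past the adjusted p, 62.5% were higher in Esrrb cells, and 48.2% after rescaling FPKM to a common median, which changed no direction of Mmp9 or Timp2.

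In Esrrb+Hh-CM against Control cells, 5 of the 6 members passed the adjusted p, Timp3 higher and Mmp9, Mmp11, Mmp14 and Timp2 lower, where 35.1% of all tested genes passed, 23.1% higher and 12.0% lower. None was called, where 6.23% of all genes were, and 5 of the 6 had an unadjusted p below 0.05 in limma. The log2 fold changes were -0.65 for Mmp9 (adjusted p = 0.000516), -0.57 for Mmp14 (0.000332), -0.70 for Timp2 (0.00057) and 0.74 for Timp3 (0.00159). Of all genes past the adjusted p, 65.8% were higher, and 49.5% after rescaling.

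In Esrrb+Hh-CM against Esrrb cells, 4 of the 6 passed the adjusted p, Timp3 higher and Mmp9, Mmp14 and Timp2 lower, where 23.4% of all tested genes passed, 13.9% higher and 9.50% lower. Mmp9 was called lower, where 4.81% of all genes were called and 1.35% called lower. The median log2 fold change of the 6 members was -0.34, against 0.04 over all tested genes. These comparisons and those above share groups of samples and are not independent of each other.

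**Figure D4:**
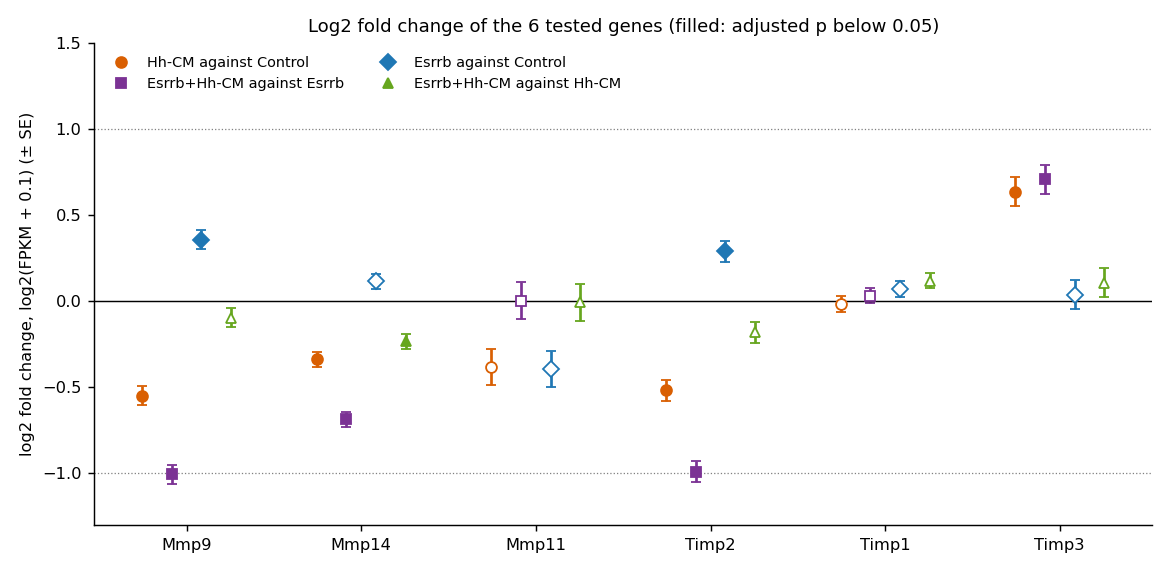
Log2 fold change with its standard error (limma, log2(FPKM + 0.1) scale) of the 6 tested genes in 4 comparisons; filled symbols mark an adjusted p below 0.05 and dotted lines a log2 fold change of 1 in size. The Hh-CM responses with the vector (squares) lie further below 0 than those without it (circles) for Mmp9, Mmp14 and Timp2, and at like heights for Timp3.

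Whether the response to Hh-CM differed between the vector lines was tested by the interaction, the log2 response in cells with the vector less that in cells without it. No member passed, where 1.35% of all tested genes did, and 4 of the 6 had an unadjusted p below 0.05 in limma. The interaction was -0.45 ± 0.078 for Mmp9 (SE, adjusted p = 0.0607), -0.35 ± 0.061 for Mmp14 (0.062) and -0.47 ± 0.086 for Timp2 (0.0667). It was 0.39 ± 0.149 for Mmp11 (0.254), 0.05 ± 0.065 for Timp1 (0.729) and 0.07 ± 0.12 for Timp3 (0.792). With FPKM rescaled to a common median, Mmp9 and Mmp14 passed with an adjusted p of 0.0497 each. The responses of Mmp9, Mmp14 and Timp2 were thus not shown to differ between the lines.

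A further 83 genes that act with MMPs were listed, of which 82 had a locus and 54 were tested. With Hh-CM against Control, 25 of the 54 passed the adjusted p, 7 higher and 18 lower, and 5 were called, where 18.0% of all tested genes passed and 2.75% were called. In Esrrb against Control cells 25 passed, 18 higher and 7 lower, with 3 called, where 16.4% of all genes passed and 1.47% were called. In Esrrb+Hh-CM against Esrrb cells 31 passed, 8 higher and 23 lower, with 10 called, where 23.4% of all genes passed and 4.81% were called. The medians of the 54 in these 3 comparisons were -0.20, 0.18 and -0.29 on the log2 scale, against 0.04, 0.05 and 0.04 over all tested genes. In Esrrb+Hh-CM against Control cells 36 passed, 16 higher and 20 lower, with 6 called, where 35.1% of all genes passed and 6.23% were called. Against Hh-CM cells 17 passed, 10 higher and 7 lower, with 2 called, where 19.1% of all genes passed and 1.96% were called.

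Among the other 16 MMP genes, 14 were below 1 FPKM in every sample, which left Mmp19 and Mmp28. Mmp28 encodes epilysin and measured 1.94 and 1.94 FPKM in Control, 1.20 and 1.62 in Hh-CM, 6.99 and 6.18 in Esrrb, and 5.48 and 4.72 in Esrrb+Hh-CM samples. The samples with the vector were all above those without it. Mmp28 was called in Esrrb against Control cells (log2 fold change 1.71, SE 0.163, adjusted p = 0.00264) and in Esrrb+Hh-CM against Hh-CM cells (1.80, SE 0.163, adjusted p = 0.00227).

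Among the other inhibitors, 4 of 8 were tested and 2 passed the adjusted p with Hh-CM against Control, 1 in each direction, where 18.0% of all tested genes passed. Timp4, the remaining TIMP gene, measured 5.03 and 4.30 FPKM in Control, 0.973 and 1.37 in Hh-CM, 3.76 and 3.02 in Esrrb, and 0.489 and 0.624 in Esrrb+Hh-CM samples. All samples with Hh-CM were below all those without it. Timp4 fell by 1.92 with Hh-CM against Control (SE 0.219, adjusted p = 0.00319) and had a log2 fold change of -2.41 in Esrrb+Hh-CM against Esrrb cells (adjusted p = 0.000899). Timp4 thus fell where Timp3 rose. Plat, of the plasminogen activator system, encodes tissue plasminogen activator and was called lower in Esrrb+Hh-CM against Esrrb cells (-1.20, adjusted p = 0.00012).

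Of the 4 tested genes listed with the plasminogen activator system, 3 fell with Hh-CM against Control, where 7.51% of all tested genes fell. These were Plat, Plau and the growth factor gene Hgf, while Plaur did not pass the adjusted p. Of the 11 tested ADAM and ADAMTS genes, 1 rose and 4 fell in that comparison, where 10.5% of all tested genes rose. Adam12, a membrane-bound protease, measured 7.13 and 7.47 FPKM in Control, 3.62 and 3.25 in Hh-CM, 15.9 and 15.4 in Esrrb, and 5.60 and 6.18 in Esrrb+Hh-CM samples. It fell by 1.07 with Hh-CM and rose by 1.09 with the vector against Control (adjusted p = 0.000813 and 0.00142). Adamts9 was called higher in Esrrb+Hh-CM against Hh-CM cells (1.00, adjusted p = 0.00113), which lay on the fold limit: the size was 0.87 with a pseudocount of 1, 0.95 after rescaling, 0.992 without Hh-CM replicate 1 and 0.99 without Esrrb+Hh-CM replicate 2. Adamts4 was listed at 0 in Hh-CM replicate 1 and at 4.87 FPKM in replicate 2, and was not called; it is named after its values were seen. Of 6 other matrix proteases and activators, 2 rose and 3 fell with Hh-CM, where 10.5% of all tested genes rose and 7.51% fell. Htra1, a secreted serine protease, fell by 1.96 with Hh-CM against Control (adjusted p = 0.0354). It reached the limit of 1 FPKM only in samples without Hh-CM, so it was tested only through the groups where it was high. Its call is given as a description.

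Of the 11 tested receptors, ligands and inducers, 2 rose and 4 fell with Hh-CM against Control, where 10.5% of all tested genes rose and 7.51% fell. Thbs1, whose product thrombospondin-1 binds matrix proteins and proteases, fell by 1.73 with Hh-CM against Control (adjusted p = 5.76e-05) and had a log2 fold change of -1.78 in Esrrb+Hh-CM against Esrrb cells (adjusted p = 3.86e-05). Thbs2, for a related protein that helps clear MMP2 through the receptor LRP1, was called lower in Esrrb+Hh-CM against Esrrb cells (-1.21, adjusted p = 5.4e-05). Cd44, for a hyaluronan receptor at which MMP9 and MMP14 dock, was called higher there (1.26, adjusted p = 0.00012). Il6, a cytokine gene, rose by 1.75 with Hh-CM against Control (adjusted p = 0.00498). Itgb3, for an integrin chain, fell by 1.19 with the vector (adjusted p = 0.00587).

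All 16 genes for transcription factors known at MMP promoters were tested, and 4 passed the adjusted p with Hh-CM against Control, 1 higher and 3 lower, where 18.0% of all tested genes passed. In Esrrb+Hh-CM against Esrrb cells 8 passed, 2 higher and 6 lower, where 23.4% of all genes passed, and Ets1 (1.07, adjusted p = 5.86e-05) and Fos (-1.19, adjusted p = 0.0308) were called. Fos measured 0.694 and 0.619 FPKM in Control, 0.416 and 0.472 in Hh-CM, 1.05 and 1.05 in Esrrb, and 0.523 and 0.311 in Esrrb+Hh-CM samples, so it was low throughout. It reached the limit of 1 FPKM only in the Esrrb samples, so it was tested only through the group where it was high. Its call against that group is given as a description. Fosl1 was listed at 0 in 5 of the 8 samples and at 3.65 to 4.74 FPKM in the rest, and no change of it passed the test. The study lists Fosl1 as lower with Hh-CM against control, by a finite fold change. A listed 0 here thus need not mean that its RNA was absent. Fosl1 too is named after its values were seen.

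**Figure D5:**
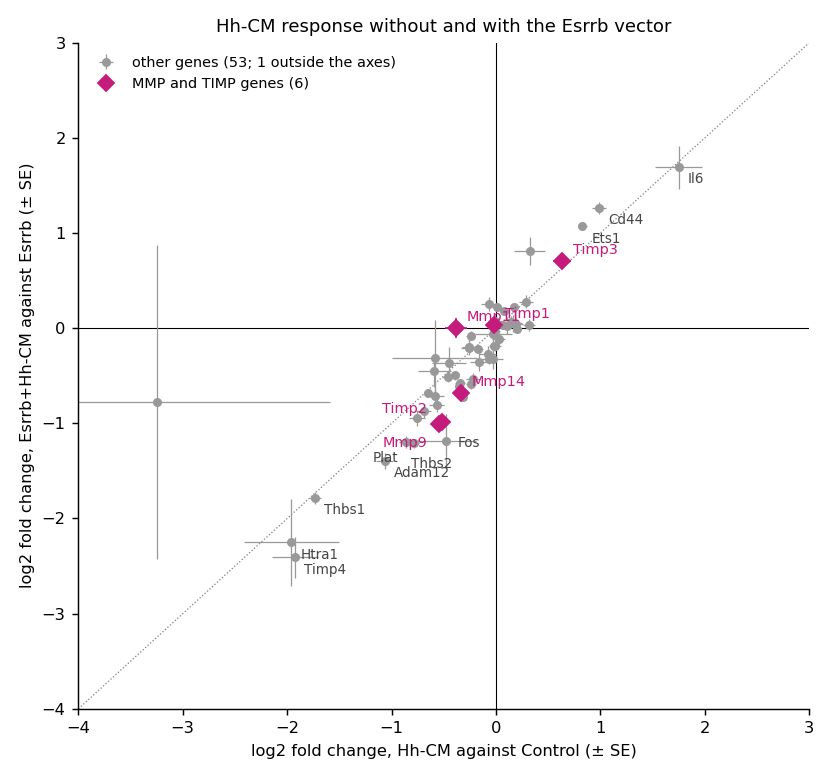
Log2 fold change with standard errors for Hh-CM against Control (x axis) and for Esrrb+Hh-CM against Esrrb (y axis) of the 6 tested MMP and TIMP genes (diamonds) and 53 of the 54 other tested genes (grey); Fosl1 lies outside the axes. Genes called in either comparison are named, the dotted line marks equal values, and Mmp9, Mmp14 and Timp2 lie below it while Timp3 lies near it.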

How the data were processed

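The 8 RNA-Seq samples of NIH3T3 cells were grouped by their labels. The authors aligned reads to mm9 and assembled each sample with Cufflinks guided by the annotation, and the deposited values are FPKM per assembled locus. Libraries were made with a strand-specific kit, per the study's methods, and the strand setting of the counting is not given in the sources used here. Depth was taken only as relative depth, from the steps of low FPKM. Since locus numbers differ between samples, each locus was joined to genes by position (Jaccard overlap of at least 0.5), and the best overlapping locus was used. 15372 of 20195 genes had the same locus in all samples. Of 74 matched member values, 10 lay outside their own deposited confidence limits, all of them values of Timp1, Timp2, Timp3 or Mmp2. limma 3.58.1 in R 4.3.3 fitted 4 group means on log2(FPKM + 0.1), so fold changes of low genes are understated, with a variance trend and Benjamini-Hochberg adjustment over all 10282 genes tested in a comparison. The scripts were tested on simulated data. An exact permutation test of 2 against 2 samples cannot go below p = 0.33 and was not used. Alternatives were pseudocounts of 1 and 0.001, other FPKM limits, the replicate block, compared groups only, rescaled FPKM, no variance trend, summed loci, an overlap of at least 0.8 and each sample left out. Chosen after seeing the data were the joined Mmp2 locus, leaving out both libraries that share locus numbers, and counts by adjusted p alone. All 10 members and, of 83 further genes, mainly those called are named. 1 listed gene is not reported here. The members and lists were chosen with earlier results of these data known. Exact binomial intervals used scipy 1.17.1.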

Additional observations from a re-analysis of the deposited data

Results flagged for a closer look

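None of the 6 members tested passed the interaction on FPKM as deposited, and Mmp9 and Mmp14 passed it after rescaling FPKM (adjusted p = 0.0497 each). Among the other genes of the protease system, 1 of 54 passed the interaction, where 1.35% of all tested genes did. Cav1, which encodes the caveolin-1 of membrane caveolae, had an interaction of -0.41 on the log2 scale (SE 0.04, adjusted p = 0.0151): its log2 fold change with Hh-CM was -0.31 without and -0.72 with the Esrrb vector. The count of 1 was 0 without Control replicate 1, Esrrb replicate 1 or Esrrb replicate 2, and 3 without Esrrb+Hh-CM replicate 2. Groups of 2 samples are too small to look for outlying samples.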

How the results depend on the processing

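Of 36 tests of members, 16 passed the adjusted p, 11 of these passed under every alternative run, and none reversed; 5 of the other 20 passed under some alternative. The replicate numbers did not pair the samples (mean correlation of deviations 0.0105, from -0.0464 to 0.0803 over 6 pairs). With the replicate block, the members past the adjusted p in Esrrb against Control fell from 2 to 1 (Timp2, adjusted p = 0.0516). That count was also 1 with no FPKM limit, compared groups only, an overlap of 0.8 or without both libraries that share locus numbers, and 0 to 3 with single samples left out. In Esrrb+Hh-CM against Control, 1 member (Mmp3) was called with no FPKM limit, and 3 passed the adjusted p at an overlap of 0.8, where Mmp9 and Mmp11 had no locus in every sample. Against Hh-CM cells, the count of 1 became 0 with compared groups only or without both libraries, 2 after rescaling, and 0 to 1 with samples left out. Against Esrrb cells, 0 were called with a pseudocount of 1 or an overlap of 0.8, 2 after rescaling, and 0 to 2 with samples left out. The interaction took 2 members after rescaling. Of the 54 other genes, 3 in place of 5 were called for Hh-CM with the FPKM limit of 1 set in all samples, and 3 to 5 for Esrrb with samples left out. For Esrrb+Hh-CM against Hh-CM, 1 in place of 2 was called with a pseudocount of 1, after rescaling or at an overlap of 0.8, and 1 to 3 with samples left out. For the interaction the count of 1 became 2 with a pseudocount of 1, the FPKM limit set in all samples, the replicate block, rescaling or an overlap of 0.8, 0 without the variance trend, and 0 to 3 with samples left out. Over all genes, calls for Hh-CM, Esrrb and Esrrb+Hh-CM against Hh-CM were 283, 151 and 202, against 178, 88 and 124 with a pseudocount of 1 and 185, 70 and 109 with the FPKM limit of 1 set in all samples. The interaction had 139, against 54 with the block, 216 after rescaling, 83 without the trend, 55 without both libraries and 61 to 173 with samples left out. Where not stated, the cause was not tested. Depth limits Mmp3, Mmp10 and Mmp13, which rest on 0 to 32 reads a sample.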

Other observations

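The widest range of group means among the tested MMP genes was that of Mmp9, at 1.01 on the log2 scale, and among the TIMP genes that of Timp2. The genes whose log2(FPKM + 0.1) followed Mmp9 most closely over the 8 samples were Sh3pxd2b (Pearson r = 0.998), S1pr1 (0.994), Sept9 (0.992), F2r (0.992) and Cxcl12 (0.99). S1pr1, a receptor for sphingosine 1-phosphate, had mean levels of 29.0 FPKM in Control and 41.3 in Esrrb cells, and of 15.7 and 15.5 in the same lines with Hh-CM. Those closest to Timp2 were Fzd7 (r = 0.994), Cxcl12 (0.993), Cdk14 (0.991), Gpc6 (0.989) and Ppp1r3d (0.988). Cxcl12, a chemokine gene found in both sets, had mean levels of 584 FPKM in Control and 691 in Esrrb cells, and of 438 and 407 with Hh-CM. These correlations are over samples of 4 groups, which set most of the range, and are given as a description.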
